A study of Mus musculus with 12 samples.

Results

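Megakaryocytes are the large polyploid cells that shed platelets, and 9 genes expressed mainly in these cells and in platelets were followed through 12 RNA-seq libraries of mouse spleen. They were taken by gene symbol: Pf4, Ppbp, Itga2b, Gp1ba, Gp1bb, Gp9, Gp5, Gp6 and Treml1, which are 9 of the 19376 genes in the table, and all 9 passed the filter on low counts. The libraries fall into 4 groups of 3. One group received a single busulfan dose of 40 mg/kg and then alginate oligosaccharides (AOS, fragments of alginate, a polysaccharide of brown seaweeds), dosed at 10 mg/kg over 5 weeks. The others received busulfan alone, AOS alone, or nothing (control), at those same doses. Busulfan is an alkylating drug that kills blood-forming cells. The strain is labelled IRC, and the sources used here give neither the age and sex of the mice nor the day of tissue collection after busulfan. The libraries taken as busulfan alone carry a sample code with 1 letter more than the design text uses for that treatment. Nothing in the labels ties each library to its own mouse, so a p-value here measures only the spread between libraries, and part of that spread may be technical.

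In mice the red pulp of the spleen, like the bone marrow, holds megakaryocytes throughout adult life, and it also stores platelets, which carry RNA made by the megakaryocyte. The 9 genes encode parts of the platelet's adhesion machinery and granule cargo. At a wound, the glycoprotein Ib-IX-V complex catches von Willebrand factor, glycoprotein VI binds collagen and signals inward, the integrin αIIbβ3 then binds fibrinogen and links platelets to each other, and alpha granules release stored chemokines.

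Depth ran from 15051297 to 16241883 counts per library. The B cell marker list (5 genes), which belongs to spleen, summed to 1729 to 3312 CPM (counts scaled to the size of the library, with TMM factors) across libraries, although the tissue label reads only cells. Pancreatic acinar genes (10 genes) summed to 38306 CPM in AOS replicate 2, against 17.0 to 4371 CPM in the other 11 libraries, and adipocyte genes (6 genes) summed to 199 CPM in control replicate 1, against 6.81 to 38.0 CPM elsewhere. Leaving out both libraries gave no call among the 9 genes in any comparison. That fit called few genes of any kind: 0 in busulfan against control, 2 in AOS against control and 9 for busulfan averaged over AOS. It called 50 in busulfan with AOS against AOS and 174 in busulfan with AOS against busulfan. The absence of a call therefore says little on the part of these 2 libraries. Fewer megakaryocytes or platelets in a piece of spleen and less RNA in each of them cannot be told apart in these bulk libraries.

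Promoters of 5 of the genes are shown, among them Pf4 and its neighbour on the chromosome, Ppbp. Megakaryocyte genes are known to be controlled by GATA factors, ETS factors such as FLI1, and NF-E2. Each stretch below is the 150 bases before the transcription start, 5′ to 3′ on the strand of the gene, from RefSeq on GRCm38.p6. Capitals mark matches to a GATA motif (AGATAA, its variant TGATAA, and the same pair ending in G, which is AGATAG with its variant TGATAG) or an ETS motif (AGGAAG, with its variant CGGAAG), on either strand.
Pf4: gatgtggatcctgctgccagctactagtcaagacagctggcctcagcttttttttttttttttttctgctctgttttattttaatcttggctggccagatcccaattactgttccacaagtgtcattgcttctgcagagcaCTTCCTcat
Ppbp: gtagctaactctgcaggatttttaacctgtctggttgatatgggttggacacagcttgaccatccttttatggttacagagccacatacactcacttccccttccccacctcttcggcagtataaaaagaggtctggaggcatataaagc
Itga2b: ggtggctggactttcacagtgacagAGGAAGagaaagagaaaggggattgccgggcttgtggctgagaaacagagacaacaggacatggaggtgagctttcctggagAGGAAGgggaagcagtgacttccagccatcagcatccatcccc
Gp1ba: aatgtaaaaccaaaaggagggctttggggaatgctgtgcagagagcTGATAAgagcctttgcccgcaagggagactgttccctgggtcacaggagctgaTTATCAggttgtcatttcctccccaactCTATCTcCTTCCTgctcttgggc
Gp5: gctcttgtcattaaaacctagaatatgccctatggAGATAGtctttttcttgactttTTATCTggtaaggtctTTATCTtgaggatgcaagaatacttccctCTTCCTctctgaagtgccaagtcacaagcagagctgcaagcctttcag
These lie at chr5:90772285-90772434 on the plus strand for Pf4, chr5:90768368-90768517 on the plus strand for Ppbp, chr11:102469884-102470033 on the minus strand for Itga2b, chr11:70638972-70639121 on the plus strand for Gp1ba and chr16:30310782-30310931 on the minus strand for Gp5. The starts used for Gp1ba, Gp6 and Gp9 lie inside the annotated genes, and the counts below include these windows. The bases after the starts used for Gp5 and Gp9 match GENCODE M21 transcripts only from 2 bases further on. In the full window of 250 bases before to 50 after the start, 5 of the 9 genes held a GATA match, against 22.1% of 18029 RefSeq promoters, and 6 of 9 held an ETS match, against 50.2%. The core of the NF-E2 motif, TGAGTCA, was in 0 of 9 windows and in 4.24% of all promoters. Gp1ba and Gp5 held 3 GATA matches each, Itga2b held 2 ETS matches and no GATA match, and Ppbp and Treml1 held neither motif. Treml1, whose promoter is not printed, varied with most of the 9 genes across libraries, and Ppbp did not. A link between the matches and how the genes varied was not tested. These are letter matches and say nothing on whether a factor binds there.

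The 9 genes lie on 6 chromosomes. Pf4 spans positions 90772435 to 90773383 of chromosome 5, and Ppbp spans 90768518 to 90770063, leaving 2371 bases between them on the same strand. Itga2b and Gp1ba lie on chromosome 11, Gp1bb and Gp5 on chromosome 16, Gp9 on chromosome 6, Gp6 on chromosome 7 and Treml1 on chromosome 17, and RefSeq lists all 9 as protein coding. Gp1bb shares 1902 exonic bases with Sept5 on the same strand in the GENCODE M21 annotation, and its estimated count was whole in 0 of 12 libraries, so how its reads were shared out cannot be traced and its values are uncertain. The counts of Pf4 (0 of 12 whole) and Ppbp (1 of 12) were also estimates, while those of the other 6 genes were whole in every library.

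The abundance of the 9 transcripts differed widely, compared in FPKM, which scales counts to gene length and library size, over the 12 libraries. Pf4, the chemokine platelet factor 4 (CXCL4), which binds heparin, had a median of 337 FPKM (range 239 to 546), and its range did not overlap that of any other member. Ppbp, the precursor of the neutrophil-attracting chemokine CXCL7, had a median of 49.3 FPKM (9.71 to 74.0), and Itga2b, the αIIb chain of the fibrinogen receptor, had 38.6 FPKM (27.5 to 62.7). Gp9, the glycoprotein IX subunit, had a median of 37.5 FPKM (29.5 to 67.7), and Treml1, the alpha granule membrane receptor TLT-1 that reaches the platelet surface on activation, had 25.9 FPKM (17.98 to 52.8). The remaining subunits of the von Willebrand factor receptor were lower, with medians of 19.7 FPKM for Gp1bb (12.8 to 32.4), 19.4 FPKM for Gp5 (15.2 to 31.9) and 14.8 FPKM for Gp1ba (11.3 to 26.6). Gp6, the collagen receptor, was lowest at 13.4 FPKM (10.9 to 26.3). Below Pf4, the range of each gene overlapped that of the next in this order. Compared library by library, Gp9 was above Treml1 and Gp5 above Gp1ba in 12 of 12 libraries, and Treml1 was above Gp1bb in 11 of 12. Ppbp was above Itga2b in 8 of 12, Itga2b above Gp9 in 4 of 12, Gp1bb above Gp5 in 6 of 12 and Gp1ba above Gp6 in 8 of 12, so the order within these pairs changed between libraries.

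**Figure D1:**
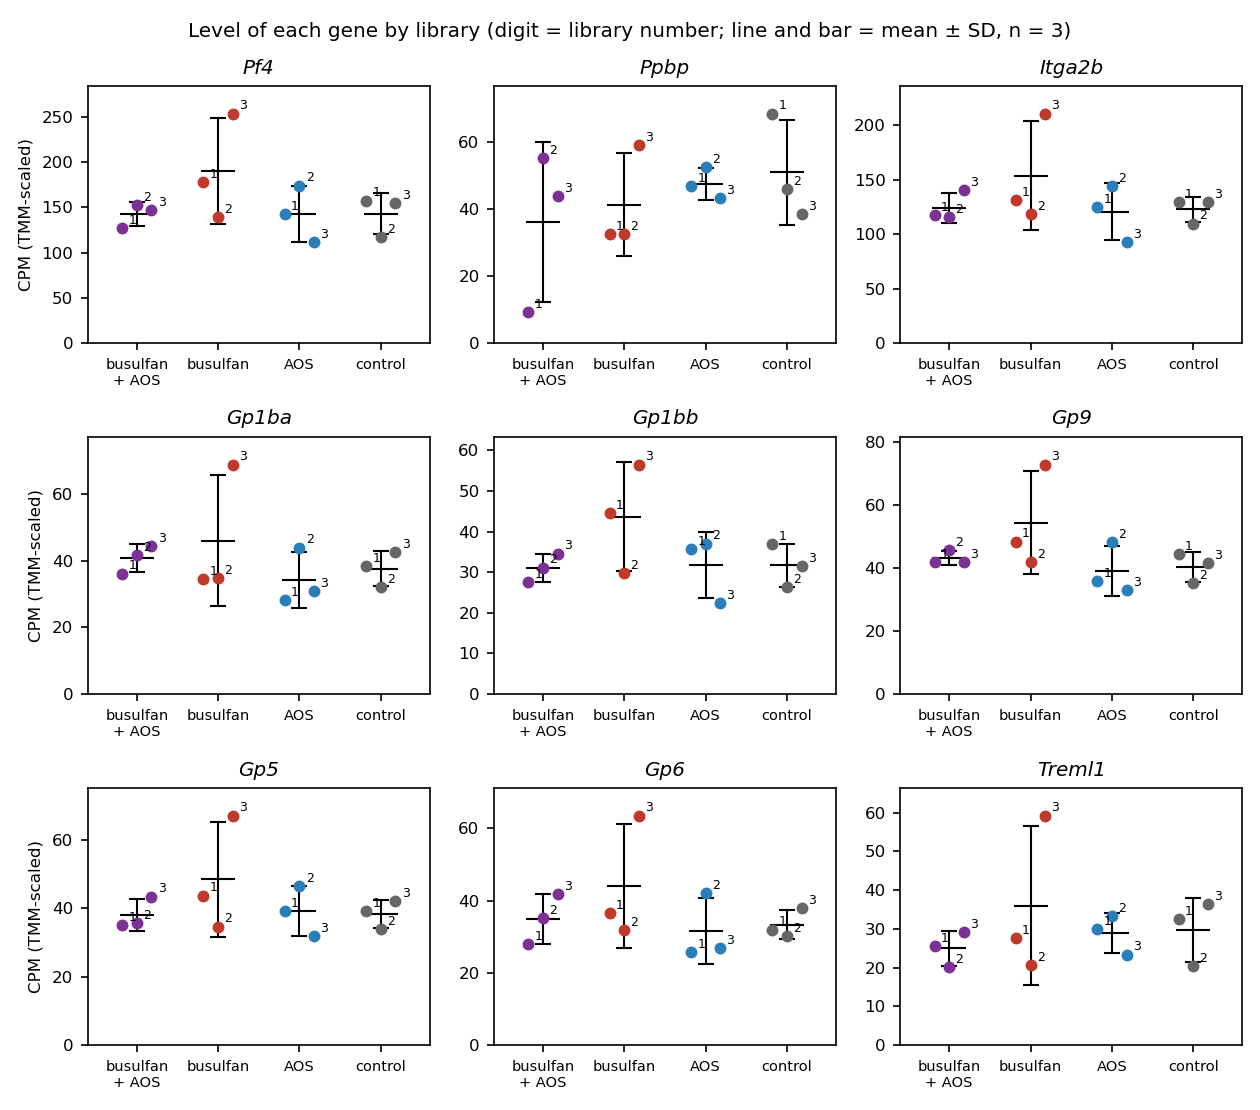
CPM of each of the 9 genes in every library, 1 panel per gene, with groups from left to right busulfan with AOS, busulfan, AOS and control. Points are libraries marked with their replicate number, horizontal lines are group means and bars the SD of 3 libraries. In 8 of the 9 panels busulfan replicate 3 is the highest library, and in the Ppbp panel busulfan with AOS replicate 1 lies at 9.34 CPM.

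None of the 9 genes passed the test in any of the 7 comparisons made. In edgeR's quasi-likelihood test with Benjamini-Hochberg adjustment, 0 of 9 had an adjusted p under 0.05 in busulfan against control, where 0.471% of the 15079 tested genes did. At an unadjusted p under 0.05 the count was 0 of 9 as well, against 20.6% of all tested genes. With AOS given after busulfan, 0 of 9 passed relative to busulfan alone, where 3.02% of all genes passed (21.2% unadjusted, 0 of 9 members). Relative to AOS alone, 0 of 9 passed in busulfan with AOS, where 5.81% of all genes did (25.6% unadjusted, 0 of 9 members). In AOS against control, 0 of 9 passed and 0% of all genes did (5.93% unadjusted, 0 of 9 members). The busulfan effect averaged over both AOS states passed for 0 of 9 members and 8.23% of all genes (29.6% unadjusted, 0 of 9 members). The AOS effect averaged over both busulfan states passed for 0 of 9 and 0% (12.1% unadjusted, 0 of 9 members), and the interaction for 0 of 9 and 0.484% (16.6% unadjusted, 0 of 9 members). DESeq2, and limma on log2 FPKM, also called 0 of 9 in each of the 7. A p above the threshold does not show that the groups were alike.

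The alpha granule chemokines differed from each other in how they varied. Pf4 had 127, 153 and 147 CPM in the 3 busulfan with AOS libraries, 178, 139 and 254 CPM in busulfan, 143, 174 and 112 CPM in AOS and 157, 117 and 155 CPM in control. Busulfan replicate 3 was the highest, AOS replicate 3 the lowest, and all 4 groups overlapped. The log2 fold change of Pf4 was 0.41 (SE 0.22, 95% interval −0.07 to 0.89, edgeR adjusted p = 0.311) in busulfan against control and −0.42 (−0.89 to 0.06, adjusted p = 0.302) in busulfan with AOS against busulfan. Ppbp had 9.34, 55.1 and 43.8 CPM in busulfan with AOS, 32.4, 32.4 and 59.1 CPM in busulfan, 46.8, 52.5 and 43.2 CPM in AOS and 68.5, 45.9 and 38.5 CPM in control. Its lowest value, in busulfan with AOS replicate 1, was far below its other 11, and none of the other 8 genes had its lowest value in that library. Its log2 fold change was −0.30 (SE 0.48, 95% interval −1.36 to 0.76, edgeR adjusted p = 0.752) in busulfan against control, the only one of the 9 below 0 with all libraries in. It was −0.65 without busulfan replicate 3, where Gp1ba (−0.12) and Treml1 (−0.30) were below 0 too, and −0.024 without control replicate 1. Relative to Pf4, Ppbp counts were 7.34%, 36.1% and 29.7% in busulfan with AOS, 18.3%, 23.3% and 23.3% in busulfan, 32.8%, 30.1% and 38.6% in AOS and 43.5%, 39.1% and 24.9% in control. The 3 busulfan values were below the 3 control values, at the closest 23.3% against 24.9%, which is a description with no test. Both counts are estimates, and 23.6% of all tested genes had CPM values without overlap between these groups. The busulfan with AOS values of the ratio overlapped all other groups.

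The fibrinogen receptor chain followed Pf4. Itga2b had 117, 116 and 140.2 CPM in busulfan with AOS, 131, 119 and 211 CPM in busulfan, 125, 144 and 92.4 CPM in AOS and 129, 109.7 and 129 CPM in control. Busulfan replicate 3 stood alone at the top and the groups overlapped. Its log2 fold change was 0.32 (SE 0.21, 95% interval −0.14 to 0.79, edgeR adjusted p = 0.408) in busulfan against control and −0.30 (−0.77 to 0.16, adjusted p = 0.455) in busulfan with AOS against busulfan.

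The 4 subunits of the von Willebrand factor receptor overlapped between all groups. Gp1ba, the chain that binds von Willebrand factor, had 36.2, 41.8 and 44.5 CPM in busulfan with AOS, 34.6, 34.8 and 69.0 CPM in busulfan, 28.2, 44.0 and 31.0 CPM in AOS and 38.3, 32.0 and 42.6 CPM in control. Of the busulfan libraries, 2 lay within the control range and replicate 3 lay above every other library. Gp9, which the complex needs to reach the cell surface, had 41.7, 45.7 and 41.8 CPM in busulfan with AOS, 48.3, 41.7 and 72.8 CPM in busulfan, 35.7, 48.1 and 33.1 CPM in AOS and 44.3, 35.1 and 41.5 CPM in control. The groups overlapped, and the log2 fold change of Gp9 in busulfan against control, 0.43 (SE 0.20, 95% interval −0.0025 to 0.86, edgeR adjusted p = 0.245), had the interval nearest to leaving out 0 in that comparison. Gp5, a thrombin-cleaved subunit, had 35.2, 35.5 and 43.4 CPM in busulfan with AOS, 43.7, 34.6 and 67.1 CPM in busulfan, 39.1, 46.5 and 31.9 CPM in AOS and 39.1, 33.9 and 42.1 CPM in control. Gp1bb, the chain disulphide-linked to glycoprotein Ibα, had 27.6, 31.1 and 34.6 CPM in busulfan with AOS, 44.6, 29.9 and 56.5 CPM in busulfan, 35.6, 37.1 and 22.4 CPM in AOS and 37.0, 26.4 and 31.6 CPM in control. In both, busulfan replicate 3 was highest, and the values of Gp1bb are subject to the exonic bases it shares with Sept5. The log2 fold changes in busulfan against control were 0.29 for Gp1ba (95% interval −0.28 to 0.86, edgeR adjusted p = 0.544), 0.34 for Gp5 (−0.14 to 0.81, adjusted p = 0.401) and 0.46 for Gp1bb (−0.06 to 0.99, adjusted p = 0.297). In busulfan with AOS against busulfan the subunits had log2 fold changes of −0.18 (Gp1ba), −0.33 (Gp9), −0.35 (Gp5) and −0.49 (Gp1bb), with edgeR adjusted p-values of 0.270 to 0.755.

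The collagen receptor and TLT-1 had the same highest library. Gp6 had 27.8, 35.03 and 41.7 CPM in busulfan with AOS, 36.4, 31.9 and 63.5 CPM in busulfan, 25.8, 42.0 and 26.8 CPM in AOS and 32.0, 30.1 and 37.8 CPM in control. Treml1 had 25.6, 20.1 and 29.1 CPM in busulfan with AOS, 27.7, 20.7 and 59.2 CPM in busulfan, 30.0, 33.3 and 23.4 CPM in AOS and 32.5, 20.4 and 36.3 CPM in control. In both genes the groups overlapped, with replicate 3 of busulfan far above the rest. In busulfan against control the log2 fold change was 0.40 for Gp6 (95% interval −0.19 to 0.99, edgeR adjusted p = 0.415) and 0.27 for Treml1 (−0.49 to 1.03, adjusted p = 0.684). In busulfan with AOS against busulfan it was −0.33 for Gp6 (adjusted p = 0.519, edgeR) and −0.52 for Treml1 (adjusted p = 0.428).

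**Figure D2:**
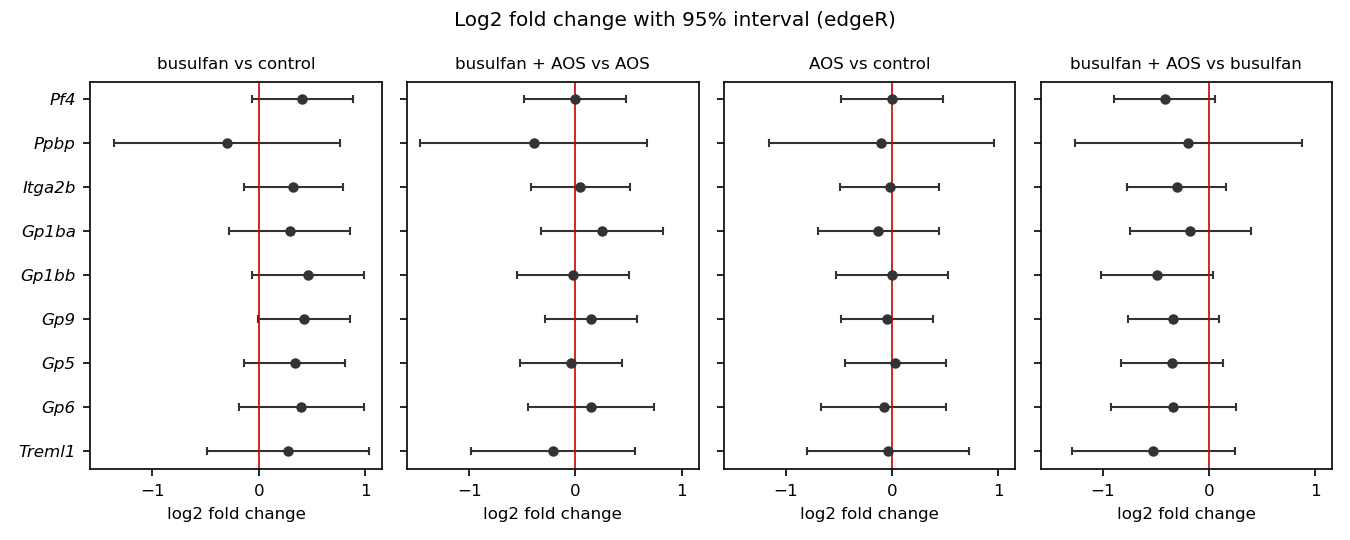
Log2 fold changes (x axis) of the 9 genes (rows) with 95% intervals from edgeR, 1 panel for each of 4 comparisons between groups. In busulfan against control 8 of 9 estimates are above 0, and in busulfan with AOS against busulfan all 9 are below 0, with every interval crossing 0.

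Over the 9 genes, the median log2 fold change was 0.34 in busulfan against control, with 8 of 9 above 0, against −0.0063 over all 15079 genes. In busulfan with AOS against busulfan the median was −0.33, with 0 of 9 above 0, against 0.0041 over all genes. These comparisons share the busulfan libraries, so a high busulfan library moves them in opposite directions. Without busulfan replicate 3 the median was 0.03 in busulfan against control, with 6 of 9 above 0, and −0.0061 in busulfan with AOS against busulfan, with 4 of 9 above 0. In busulfan with AOS against AOS the estimates ran from −0.39 (Ppbp) to 0.25 (Gp1ba), and in AOS against control from −0.13 (Gp1ba) to 0.03 (Gp5). The summed CPM of the 9 genes was 448, 533 and 566 in busulfan with AOS, 577, 484 and 912 in busulfan, 509, 622 and 416 in AOS and 578, 451 and 555 in control. In the 4 comparisons between groups that were made, which give 36 combinations with the 9 genes, the values overlapped each time, so 0 of 9 genes were apart in each. Of all tested genes, 23.6% had no overlap in busulfan against control, 27.3% in busulfan with AOS relative to busulfan, 31.7% in busulfan with AOS relative to AOS and 10.8% in AOS against control. The upper ends of the 95% intervals in busulfan against control lay between 0.76 (Ppbp) and 1.03 (Treml1) on the log2 scale.

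Busulfan replicate 3 was the highest library for 8 of the 9 genes, at 1.71 times (Itga2b) to 2.18 times (Treml1) the mean of the other 11 libraries for those 8, and the second highest for Ppbp at 1.39 times. Other markers moved with it. All 11 neutrophil markers were highest in this library, summing to 9862 CPM, against 601 to 4266 CPM in the other 11, and their sums were 821, 2267 and 2078 in busulfan with AOS, 4266, 1801 and 9862 in busulfan, 1102, 1322 and 888 in AOS and 601, 1154 and 820 in control. Of 6 basophil and mast cell markers, 5 were highest there, summing to 75.2 CPM against 7.53 to 36.8 CPM. B cell markers were lowest there, at 1729 CPM against 1898 to 3312 CPM, and no gene of these lists was at 0 in that library. Erythroid markers (10 genes) summed to 10692 CPM there, within the 5215 to 11205 CPM of the other libraries, and endothelial markers (7 genes) to 481 CPM, within 432 to 530 CPM. The part of these cell types in the platelet gene values was not tested.

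**Figure D3:**
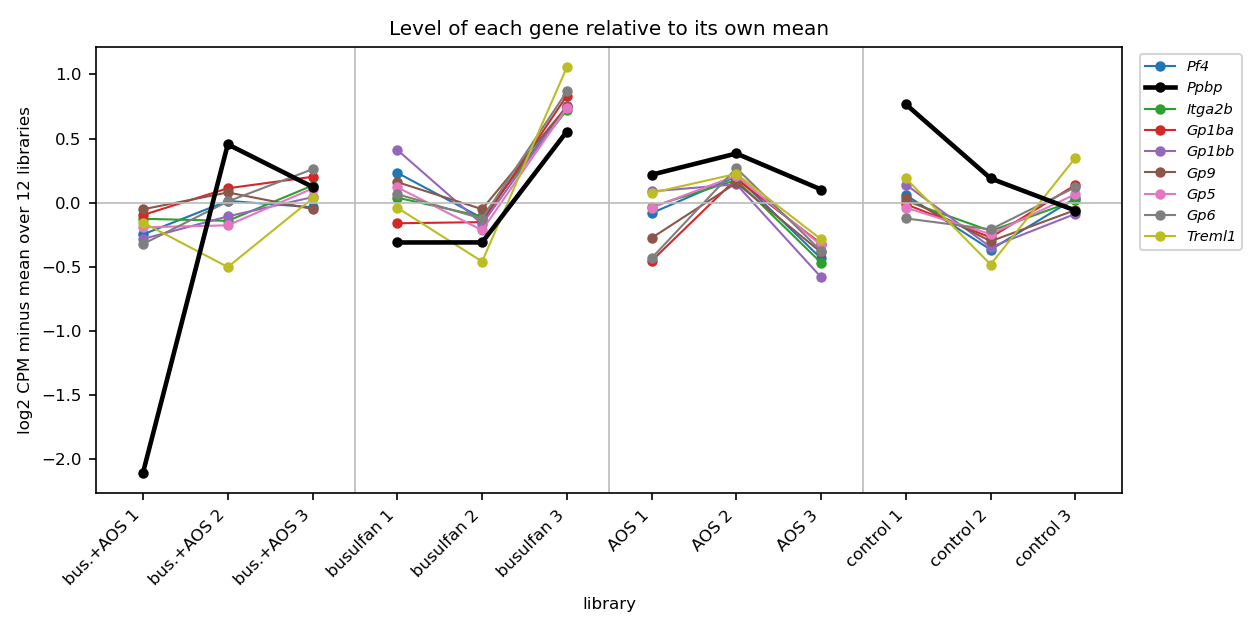
Log2 CPM of each of the 9 genes minus its mean over the 12 libraries (y axis), 1 line per gene, with libraries grouped from left to right as busulfan with AOS, busulfan, AOS and control. In busulfan replicate 3, 8 of the lines reach their highest point, and the Ppbp line runs apart from them.

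All but Ppbp varied together across libraries, and the correlations between pairs use log2 CPM. Over the 12 libraries, the 28 pairs that leave out Ppbp had Pearson r of 0.66 to 0.97 (median 0.88) and Spearman rho of 0.36 to 0.97 (median 0.79). Itga2b and Gp5 were the most alike (r = 0.97, permutation p = 1e-05, the smallest 100000 resamples can give, adjusted p = 0.000288; rho = 0.97, adjusted permutation p = 0.000720), and Gp1ba and Gp1bb the least (r = 0.66, permutation p = 0.0225, adjusted p = 0.0290; rho = 0.48, adjusted permutation p = 0.151). All 28 pairs had an adjusted permutation p of r under 0.05, over 36 pairs tested, with adjusted p-values of rho up to 0.295. The values of a pair come from the same libraries and so share each library's depth, scaling and cell makeup. For each pair, r was taken again without the 2 libraries farthest from the median of its first-listed gene, so the libraries left out differed between pairs. It then ran from 0.23 to 0.95 (median 0.64). Without busulfan replicate 3, r ran from 0.30 to 0.92 (median 0.71), when 17 of 36 pairs still passed. Deviations from the group means gave r of 0.65 to 0.98 (median 0.88). They use all 12 libraries, busulfan replicate 3 among them, and were not taken again without it.

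Ppbp was the exception. Its 8 pairs had r of 0.19 to 0.36 and rho of 0.24 to 0.41, and 0 of 8 passed (adjusted permutation p 0.258 to 0.454). With Pf4, its genomic neighbour, r was 0.35 (permutation p = 0.218, adjusted p = 0.262; rho = 0.40, adjusted permutation p = 0.251). Without busulfan with AOS replicate 1, where Ppbp had 9.34 CPM, the 8 values of r were 0.25 to 0.41.

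**Figure D4:**
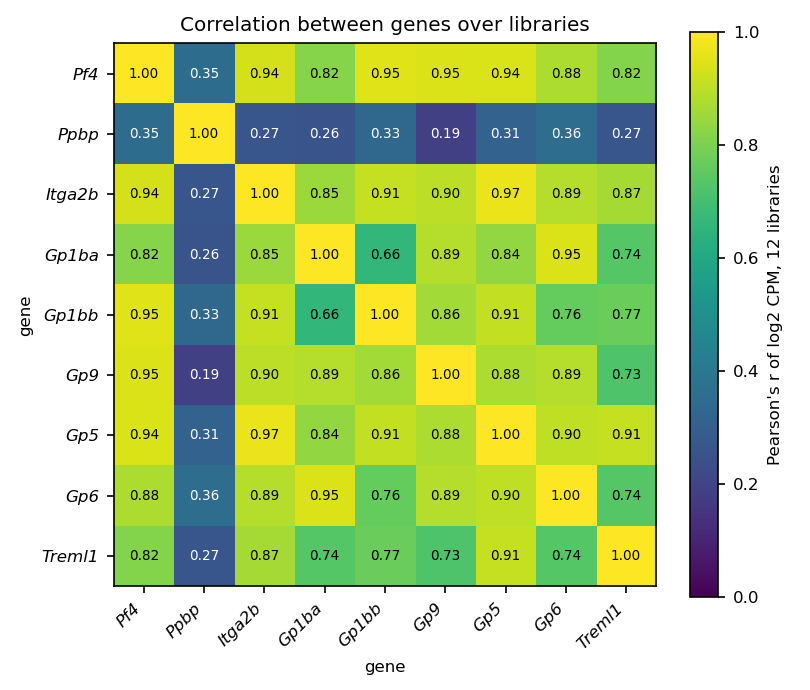
Pearson r between each pair of the 9 genes over 12 libraries. The 28 pairs without Ppbp lie between 0.66 and 0.97, and the 8 pairs with Ppbp between 0.19 and 0.36.

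The genes most like the 9, by Pearson r over the 12 libraries to the mean of their standardised log2 CPM, included known platelet genes. Itgb3, the β3 chain that pairs with αIIb, had r = 0.97, Rbpms2, an RNA-binding protein, 0.97, and F2rl3, the thrombin receptor PAR4, 0.96. Alox12, the platelet-type lipoxygenase, had r = 0.96, Slc6a4, the serotonin transporter, 0.96, Cd9, a tetraspanin, 0.95, Gramd1c 0.95 and P2rx1, an ATP-gated channel, 0.94. Itgb3 had 185, 222 and 223 CPM in busulfan with AOS, 215, 195 and 325 CPM in busulfan, 189.9, 229 and 165 CPM in AOS and 208, 180.0 and 229.6 CPM in control. Without busulfan replicate 3 these 8 genes kept r of 0.81 to 0.94. Of 15069 genes outside the 9, 33 (0.219%) reached r of 0.9 and 125 (0.83%) reached 0.8, and the median was −0.0188. The list of platelet receptors (18 genes) had a median r of 0.88, with 13 at 0.8 or above, the granule list (12 genes) 0.75 with 4, and the signalling and release list (15 genes) 0.68 with 4. Megakaryocyte transcription factors (10 genes) had a median r of 0.42 and the thrombopoietin signalling list (8 genes) −0.31, with 0 at 0.8 in either. Neutrophil markers had a median r of 0.70, which was 0.26 without busulfan replicate 3. Without that library the platelet lists were lower as well, at 0.72 for receptors, 0.53 for granule genes and 0.50 for signalling and release.

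**Figure D5:**
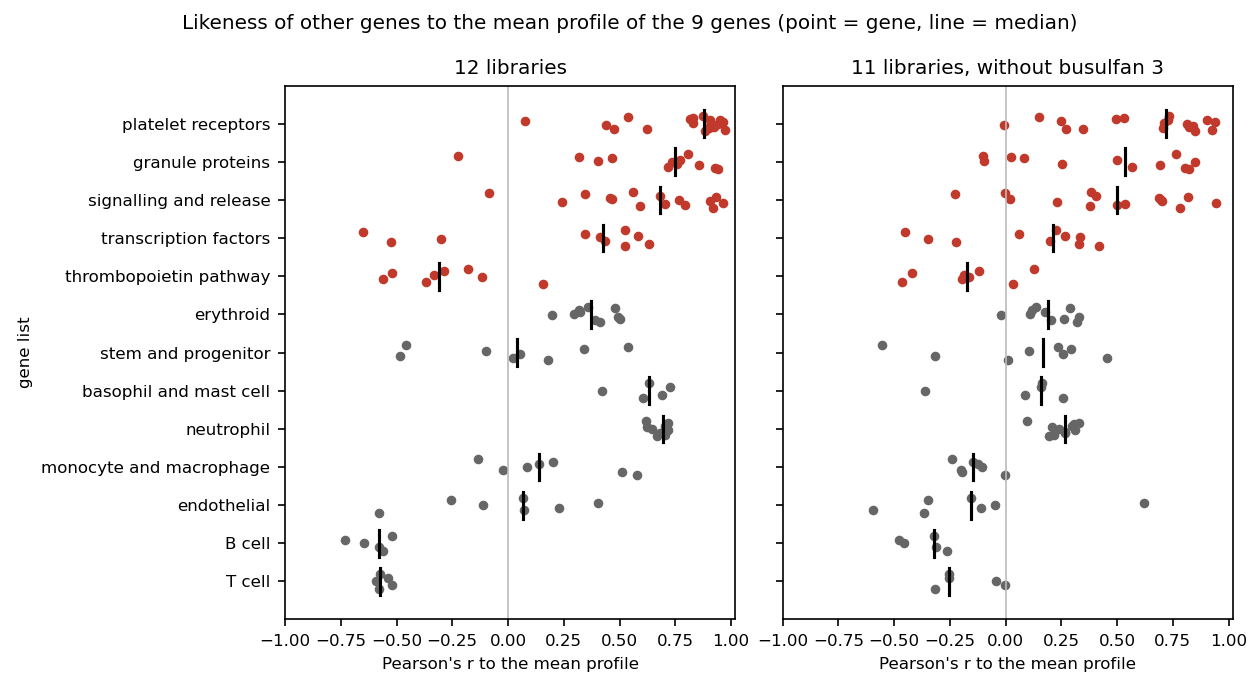
Pearson r of each list's genes to the mean profile of the 9 genes, over 12 libraries. Points are genes and lines are medians, with all libraries on the left and without busulfan replicate 3 on the right. The platelet receptor list has the highest median, 0.88, and B and T cell markers lie below 0.

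Other megakaryocyte and platelet genes were read against the same shares of all tested genes. In edgeR's fit 0 of 18 receptors and 0 of 12 granule genes were called in any comparison, and at an unadjusted p under 0.05 a comparison held at most 2 receptors and 3 granule genes. The lists of transcription factors (10 genes), signalling and release genes (15) and thrombopoietin signalling (8 tested) gave 7 calls, which 5 genes account for. For busulfan averaged over AOS, 2 of 10 transcription factors and 1 of 15 signalling and release genes were called. Of thrombopoietin signalling genes 0 of 8 were, and of all tested genes 8.23%. In busulfan against control 1 of 10 transcription factors was called, beside 0.471% of all genes. In busulfan with AOS against AOS 1 of 15 signalling and release genes and 1 of 8 thrombopoietin signalling genes were, beside 5.81%. In busulfan with AOS against busulfan 1 of 8 thrombopoietin signalling genes was, beside 3.02%. Nothing particular to the lists is read from these calls. Fli1, the ETS factor of megakaryocytes, was lower in busulfan, with 77.9, 87.1 and 80.3 CPM, against 108, 114 and 99.4 CPM in control. Its log2 fold change was −0.39 (SE 0.07, edgeR adjusted p = 0.0494), and −0.25 (adjusted p = 0.0248) for busulfan averaged over AOS. In busulfan with AOS against AOS it was only −0.11 (edgeR adjusted p = 0.360). Fli1 values overlapped there, with 101, 94.4 and 107 CPM against 113, 106 and 108 CPM. Mef2c, a MADS-box factor also high in B cells, was lower in busulfan averaged over AOS with a log2 change of −0.30 (edgeR adjusted p = 0.0402). It had 221, 177 and 184 CPM in busulfan with AOS, 153, 187 and 154 CPM in busulfan, 229, 198 and 226 CPM in AOS and 232, 221 and 209 CPM in control. Rasgrp2, the exchange factor that activates Rap1, had 179, 148 and 184 CPM in busulfan with AOS, against 259, 246 and 214 CPM in AOS. Its log2 fold change was −0.49 (edgeR adjusted p = 0.0342), and −0.34 (adjusted p = 0.0319) for busulfan averaged over AOS. In busulfan against control it was −0.19 (edgeR adjusted p = 0.367). Sh2b3, the adaptor LNK that restrains thrombopoietin signalling, had 132, 135 and 141 CPM in busulfan with AOS, against 155, 169 and 173 CPM in AOS (log2 fold change −0.29, edgeR adjusted p = 0.0451). Socs3, a feedback inhibitor of JAK signalling, had 35.6, 27.4 and 34.0 CPM in busulfan with AOS, against 21.6, 19.1 and 21.7 CPM in busulfan (log2 fold change 0.63, edgeR adjusted p = 0.0366). These genes did not follow the 9: r to their profile was −0.53 for Fli1, −0.65 for Mef2c, 0.24 for Rasgrp2, −0.11 for Sh2b3 and −0.29 for Socs3. They are also expressed in other spleen cells, and summed B cell markers were 2360, 1898 and 2092 CPM in busulfan with AOS, 2122, 2380 and 1729 CPM in busulfan, 2921, 2879 and 3312 CPM in AOS and 2898, 2840 and 2207 CPM in control; their part in these calls was not tested. Each of the 7 calls was lost under at least 6 of the other settings, and that of Fli1 in busulfan against control under 18. Leaving out 1 library ended each call in 5 to 10 of 12 fits, with no change of sign. F13a1, the A chain of coagulation factor XIII, had the smallest p of the granule genes in busulfan averaged over AOS (log2 change 0.83, edgeR adjusted p = 0.0595), with 22.8, 35.2 and 27.5 CPM in busulfan with AOS, 44.5, 30.1 and 95.9 CPM in busulfan, 21.3, 23.2 and 18.7 CPM in AOS and 23.5, 29.5 and 20.4 CPM in control. Thbs1, thrombospondin 1, followed it at 0.40 (adjusted p = 0.164, edgeR), and Ptgir, the prostacyclin receptor (0.34, adjusted p = 0.142), and Esam, an adhesion molecule (0.20, adjusted p = 0.145), had the smallest p of the receptors. Without busulfan replicate 3 these log2 changes were 0.52 for F13a1, 0.21 for Thbs1, 0.19 for Ptgir and 0.13 for Esam, and F13a1 passed the test under 2 other settings. Thpo, the gene of thrombopoietin, was too low to test, at 0.512 CPM or less.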

How the data were processed

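RNA from 12 mouse spleen libraries, 3 in each of 4 groups, was measured by sequencing. The authors deposited expected counts per gene, of which 75.7% of values are whole, and a second value read here as FPKM, because count divided by value tracked the library totals within 1.05% (1227 genes of 2000 or more counts), whereas TPM would have missed by as much as 7.73%. Per the submitters' processing notes the build was mm10. How reads were aligned and counted, with which annotation and strand setting, is not given in the sources used here, so antisense and overlapping reads cannot be traced. A further 8 columns of the authors' means were not used. Within groups, chi-square per degree of freedom between libraries was 15.9 to 72.7, so none was a copy.

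Expected counts were rounded, and edgeR 4.0.16 (R 4.3.3) was the main test (filterByExpr, 15079 genes, TMM factors 0.965 to 1.04, glmQLFit on all 12 libraries, 8 residual degrees of freedom). Benjamini-Hochberg adjustment ran over all tested genes at 0.05, and group contrasts, averages and the interaction were tested. CPM are scaled by TMM. Correlations between pairs used log2 CPM with 100000 resamples, and likeness to the mean profile used log2(CPM + 0.5). Alternatives were DESeq2 1.42.0, limma 3.58.1 on log2(FPKM + 0.1) and log2(FPKM + 1), other scalings and filters, leaving out each library, and a replicate block. Named genes were all 9 members, list genes called in a comparison or the 2 of smallest p, and the 8 genes most like the members. Promoters were matched by gene in a RefSeq table of GRCm38.p6. The test was also run on simulated data with the same spread for every gene and no library set apart, so that run does not cover an outlying library. The members and lists were chosen with earlier results of these data known.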

Additional observations from a re-analysis of the deposited data

How the results depend on the processing

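Over the fit reported and 22 other settings together, 0 of 1422 member tests had an adjusted p under 0.05, and the smallest was 0.0998. These are refits of the same 9 genes in the same libraries, not separate tests. In some settings a comparison called 0 of all genes, so a member call was not to be had there. Whether replicate numbers pair the libraries was not settled. The 18 same-numbered pairs correlated at −0.122 to 0.281, and 5 of 12 libraries correlated best with their own number. Values of differently numbered pairs are not given beside them. With the replicate block, 0 members were called in each comparison. Signs of small estimates turned: Gp5 in AOS against control was −0.03178 and −0.0298 on FPKM plus 0.1 and plus 1, and −0.09673 without control replicate 1 and AOS replicate 2, and the Gp1ba interaction was 0.1348, 0.1224 and 0.1576 there. The cause was not tested. Leaving out 1 library, Gp1ba and Treml1 in busulfan against control ran from −0.1172 to 0.4631 and −0.2957 to 0.5487, and Ppbp from −0.6512 to −0.02391. In busulfan with AOS against busulfan, Ppbp ran from −0.6328 to 0.2594, Gp1ba from −0.3459 to 0.2346, Gp6 from −0.5194 to 0.02888 and Treml1 from −0.8013 to 0.04328. Ppbp in busulfan with AOS against AOS ran from −0.8329 to 0.05937. In AOS against control, Gp1ba ran from −0.3468 to 0.003169 and Gp5 from −0.1109 to 0.1581. Averaged over busulfan, the AOS effect ran from −0.4213 to 0.0009279 for Treml1 and from −0.3673 to 0.07886 for Ppbp, and the Gp1ba interaction from −0.2153 to 0.3651. The number of correlated pairs ran from 17 to 28. Calls over all genes ranged from 0 to 902 in busulfan against control (71 as reported), 28 to 1770 in busulfan with AOS against AOS (876), 0 to 70 in AOS against control (0), 45 to 1157 in busulfan with AOS against busulfan (456), 9 to 2375 for busulfan averaged over AOS (1241), 0 to 231 for AOS averaged over busulfan (0) and 7 to 621 for the interaction (73).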
